A study of Mus musculus with 12 samples.

Results

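In RNA from whole mouse liver, 10 lymphocyte marker genes were followed, 5 for T and natural killer (NK) cells (Cd3e, Cd4, Cd8a, Nkg7, Gzma) and 5 for B and plasma cells (Cd79a, Cd79b, Ighm, Jchain, Igkc). They were chosen by name as markers of these cells, and all 10 had a row among the 54532 genes of every count table. The livers came from male PPARγ flox/flox mice injected at 8 weeks of age with AAV8, an adeno-associated virus, that carried either Cre recombinase (PPARγ-KO) or eGFP (wild-type) behind the TBG promoter. This promoter is active in hepatocytes, so lymphocytes were not a target of the deletion, and the wild-type mice carried the floxed alleles and a virus as well. All 4 groups received a fast-food diet (FFD) with sugar in the drinking water, for 2 or for 5 months, and each genotype had 3 libraries at each time. No chow-fed library was analysed here, and the labels name the libraries of a group only as repeats, so the p-values measure the spread between these libraries.

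T cells recognize antigen through a receptor whose signal is passed on by the CD3 chains, with CD4 or CD8 as coreceptor, and cytotoxic T cells and NK cells kill through granules that hold granzymes and NKG7. B cells carry a membrane immunoglobulin that signals through CD79A and CD79B, and plasma cells secrete immunoglobulin in quantity, with the J chain joining IgM and IgA into polymers. Liver holds resident lymphocytes in the sinusoids, and blood left in the organ adds others. In RNA from whole tissue, fewer cells of a type and less RNA per cell cannot be told apart.

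Libraries held 16367775 to 27452284 counts, and 28715 genes had a count in at least 1 library. Summed over 10 hepatocyte markers the level was 56620 to 90340 CPM (each count as a rate per 1e+06 counts, scaled for library composition). Counts over the whole Pparg gene were not lower in the libraries labelled PPARγ-KO (974 to 1398 counts at 2 months and 1189 to 1834 at 5 months) than in wild-type (711 to 804 and 623 to 710). The log2 fold change was 0.52 (adjusted p = 0.0309) at 2 months and 1.15 (adjusted p = 2.57e-06) at 5 months. Gene-level counts do not show the deleted part by itself, so genotype directions rest on the labels. Wild-type replicate 1 at 2 months stood apart from its group, with 156 Igkc counts against 47 and 60, and PPARγ-KO replicate 1 at 5 months stood apart in T and NK genes.

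All 10 genes were scarce. Cd3e, a chain of the T cell receptor complex (chr9:44998740-45009627, minus strand, mm10), had 4 to 19 counts per library, with values of 13, 4 and 10 in wild-type and 8, 7 and 16 in PPARγ-KO at 2 months, then 5, 11 and 19 (wild-type) and 17, 8 and 4 (PPARγ-KO) at 5 months. Its groups overlapped in every comparison. Ighm, the constant region of the IgM heavy chain (chr12:113418558-113422730, minus strand), was the most abundant with 201 to 1808 counts, followed by Igkc, the constant region of the kappa light chain (chr6:70726435-70726966, plus strand), with 43 to 214. Compared per length, wild-type livers at 2 months had 11.3 ± 2.29 CPM per kb of Ighm (SD, n = 3), 8.75 ± 6.30 of Igkc and 1.15 ± 0.347 of Cd79b. The other 7 genes had means of 0.104 to 0.584 CPM per kb in the same libraries. Ighm and Igkc did not differ beyond their spread there, while Cd79b lay below both in mean by more than its own SD. At 5 months Igkc led in wild-type with 18.4 ± 4.63 CPM per kb against 9.03 ± 2.42 for Ighm, and in PPARγ-KO the order was Ighm with 20.3 ± 2.37 and Igkc with 13.1 ± 7.19.

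**Figure D1:**
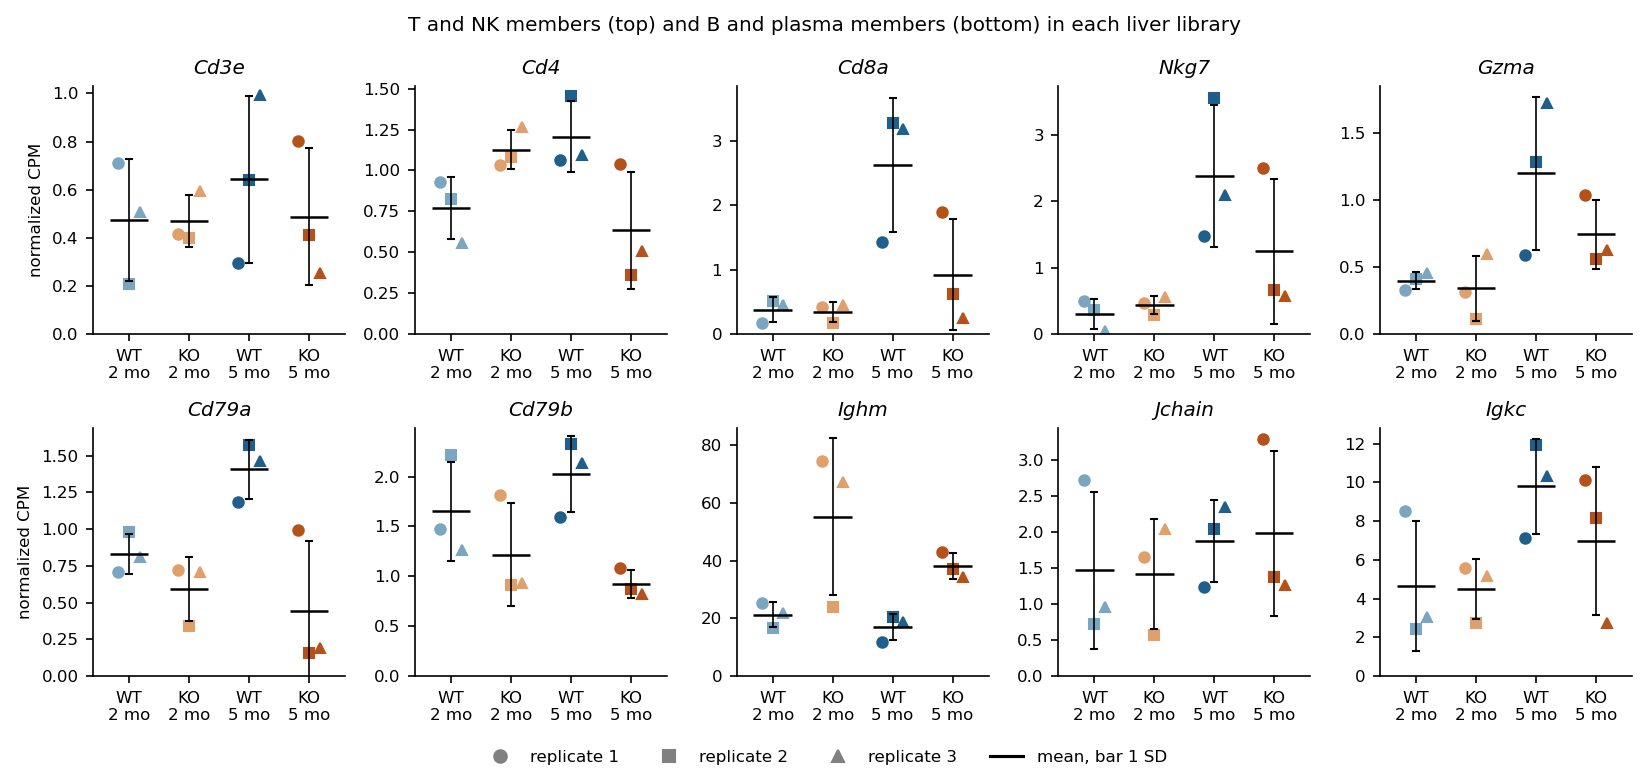
Normalized CPM (vertical axes, from 0) of each lymphocyte gene in the 12 liver libraries, by group (WT, wild-type; KO, libraries labelled PPARγ-KO; 2 or 5 months of FFD), with the mean as a line and 1 SD as a bar, cut at 0 where it would pass below. Cd8a and Nkg7 are high in the 3 wild-type libraries at 5 months and in PPARγ-KO replicate 1, and Ighm is higher in all PPARγ-KO libraries than in wild-type at 5 months.

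The first question was whether the livers labelled PPARγ-KO differed from wild-type after 2 months of FFD. None of the 10 genes passed the test at an adjusted p under 0.05, among 6 that had enough counts to be tested. At the same threshold 3.56% of all 14573 genes tested were called, and 5.61% with the replicate number as a block, which called none of the 6 either. An unadjusted p under 0.05 was reached by 1 of the 6, Ighm. DESeq2 called 0 as well. Groups did not overlap for 1 of the 10 genes, against 24.1% of all genes tested.

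That gene was Cd4, the coreceptor of helper T cells, which macrophages and dendritic cells can also express (chr6:124864692-124888221, minus strand). Its levels at 2 months were 0.927, 0.823 and 0.558 CPM in wild-type and 1.04, 1.08 and 1.26 CPM in PPARγ-KO. All PPARγ-KO values lay above the wild-type range, but the log2 fold change of 0.56 (SE 0.34) had an adjusted p of 0.419.

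Ighm had 463, 324 and 429 counts in wild-type and 1439, 423 and 1808 in PPARγ-KO at 2 months. PPARγ-KO replicates 1 and 3 were far above wild-type, and replicate 2 lay within the wild-type range. The log2 fold change was 1.38 (SE 0.49) with an adjusted p of 0.235, and without replicate 2 it was 1.74 with an adjusted p of 0.0034, so this 1 library decided the call. In that fit 1.59% of all genes tested were called. With the replicate block the adjusted p was 0.107.

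The other B cell genes did not pass the test between genotypes at 2 months. Cd79a and Cd79b, the signalling chains of the B cell receptor, had log2 fold changes of -0.47 (SE 0.40) and -0.45 (SE 0.37). Jchain (50, 14 and 19 counts against 32, 10 and 55) and Igkc (156, 47 and 60 against 108, 48 and 139) had log2 fold changes of -0.0031 (SE 0.61) and -0.04 (SE 0.53). In both the groups overlapped, and without wild-type replicate 1 the values were 0.79 and 0.73. Cd3e, Cd8a, Nkg7 and Gzma had too few counts for the test, with 1 to 16 per library.

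At 5 months 2 of the 10 genes passed the test, Ighm higher and Cd79b lower in the libraries labelled PPARγ-KO, where 18.4% of all 14138 genes tested were called, 8.9% as higher and 9.51% as lower. Groups did not overlap for 4 genes (Ighm higher, Cd4, Cd79a and Cd79b lower), against 34.9% of all genes. Neither share stood far from that of all genes. DESeq2 called 4 members in this comparison, Ighm as higher and Cd8a, Cd79a and Cd79b as lower.

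Ighm had 201, 354 and 356 counts in wild-type at 5 months and 915, 724 and 546 in PPARγ-KO. In normalized units these were 17.0 ± 4.56 CPM and 38.2 ± 4.47 CPM (SD, n = 3). Every PPARγ-KO library was above every wild-type library, and the log2 fold change was 1.18 (SE 0.20, adjusted p = 0.0092). The adjusted p was 0.0564 with the replicate block and 0.106 when all 12 libraries were fitted together, so the call depended on how the spread was estimated, while the fold change stayed between 0.98 and 1.33.

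Cd79b (chr11:106311341-106314762, minus strand) had 27, 40 and 41 counts in wild-type and 23, 17 and 13 in PPARγ-KO at 5 months. The wild-type levels of 1.60 to 2.33 CPM lay above the PPARγ-KO levels of 0.820 to 1.09 CPM, and the log2 fold change was -1.10 (SE 0.29, adjusted p = 0.0192). Leaving out wild-type replicate 2 or 3, or PPARγ-KO replicate 2 or 3, raised the adjusted p to 0.0963, 0.082, 0.0605 and 0.0737.

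Cd79a (chr7:24897381-24902197, plus strand), the partner of Cd79b, had 20, 27 and 28 counts in wild-type and 21, 3 and 3 in PPARγ-KO. PPARγ-KO replicates 2 and 3 were nearly without it and replicate 1 had a count within the wild-type range, though its level of 0.991 CPM was below the lowest wild-type level of 1.18 CPM. The log2 fold change was -1.57 (SE 0.53) with an adjusted p of 0.0621. Over the summed counts of 27 and 75, PPARγ-KO stood at 0.325 of wild-type, with an exact 95% interval of 0.201 to 0.511 that covers counting error only.

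The T and NK genes did not pass the edgeR test at 5 months, while DESeq2 called Cd8a as lower. Cd8a, the coreceptor of cytotoxic T cells (chr6:71373427-71379173, plus strand), had 24, 56 and 61 counts in wild-type and 40, 12 and 4 in PPARγ-KO. PPARγ-KO replicate 1 lay inside the wild-type range and replicates 2 and 3 below it. The log2 fold change was -1.44 (SE 0.60, adjusted p = 0.147). Nkg7, a protein of cytotoxic granules (chr7:43437073-43438249, plus strand), had the same order, with 25, 61 and 40 counts in wild-type and 53, 13 and 9 in PPARγ-KO. Its log2 fold change was -0.87 (SE 0.57, adjusted p = 0.363). Cd4 had 18, 25 and 21 counts in wild-type and 22, 7 and 8 in PPARγ-KO, with a log2 fold change of -0.88 (SE 0.41, adjusted p = 0.165). Gzma, the granzyme A protease (chr13:113093825-113100981, minus strand), had 10, 22 and 33 counts against 22, 11 and 10, a log2 fold change of -0.67 (SE 0.42, adjusted p = 0.322).

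Without PPARγ-KO replicate 1, the count of genes that passed at 5 months rose from 2 to 6. Cd8a then differed by -2.52 (adjusted p = 0.00385), Nkg7 by -1.91 (adjusted p = 0.0101), Cd4 by -1.47 (adjusted p = 0.0453) and Cd79a by -2.99 (adjusted p = 0.0017), on the log2 scale. In that fit 15.6% of all genes tested were called, and the PPARγ-KO group held 2 libraries. In the plot of member levels this library sits above its group in all 5 T and NK genes.

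Jchain and Igkc did not separate the genotypes at 5 months. Jchain (chr5:88519809-88527891, minus strand), which links IgM and IgA units, had 21, 35 and 45 counts against 70, 27 and 20, a log2 fold change of 0.11 (SE 0.39). Igkc had 120, 205 and 198 against 214, 159 and 43, a log2 fold change of -0.45 (SE 0.49). In CPM the groups overlapped, at 1.24 to 2.35 in wild-type and 1.26 to 3.30 in PPARγ-KO for Jchain, and at 7.11 to 11.95 and 2.71 to 10.1 for Igkc. The sign for Jchain turned to -0.49 without PPARγ-KO replicate 1.

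**Figure D2:**
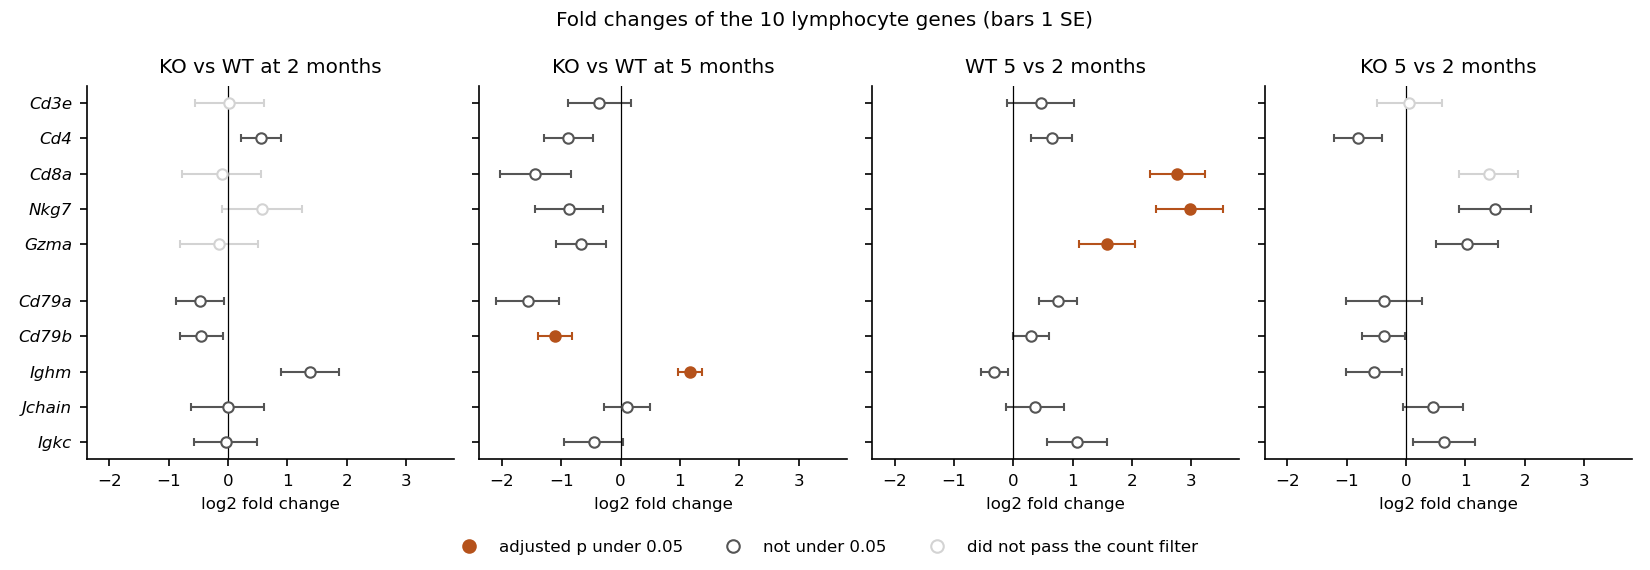
Log2 fold changes (horizontal axes) of the 10 genes in the 4 comparisons, first-named group over second, with bars of 1 SE. Filled points passed the edgeR test at an adjusted p under 0.05: Ighm and Cd79b between genotypes at 5 months, and Cd8a, Nkg7 and Gzma between 5 and 2 months in wild-type. Pale points had too few counts for the test.

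In wild-type livers 3 of the 5 T and NK genes, Cd8a, Nkg7 and Gzma, were higher after 5 months of FFD than after 2 months by the edgeR test. All 3 had too few counts for the test between genotypes at 2 months. They were thus tested here through their counts at 5 months and could hardly have been called as lower. Of the 5 B and plasma cell genes 0 passed, 1 had an unadjusted p under 0.05, and DESeq2 called 0. This contrast moved much of the transcriptome: 46.4% of all 14491 genes tested were called, 23.8% as higher. Groups did not overlap for 5 of the 10 genes, all higher at 5 months, against 56.8% of all genes in either direction and 28.7% higher. Whether libraries of the 2 times were prepared together is not given in the sources used here, and time and preparation cannot be told apart.

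Cd8a had 3, 10 and 9 counts at 2 months and 24, 56 and 61 at 5 months in wild-type, or 0.378 ± 0.188 and 2.62 ± 1.04 CPM (SD, n = 3). The log2 fold change was 2.77 (SE 0.46, adjusted p = 0.00072). Nkg7 had 9, 7 and 1 counts and then 25, 61 and 40, a log2 fold change of 2.97 (SE 0.56, adjusted p = 0.00167). The groups did not overlap in either gene. Gzma went from 6, 8 and 9 counts to 10, 22 and 33, a log2 fold change of 1.58 (SE 0.47, adjusted p = 0.0172), and the adjusted p was 0.0516 without wild-type replicate 2 at 5 months and 0.0979 without replicate 3.

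Over the summed counts, the ratio of 5 to 2 months was 6.55 for Cd8a (exact 95% interval 4.16 to 10.8) and 7.57 for Nkg7 (4.55 to 13.4), intervals that cover counting error only. Cd4 had a log2 fold change of 0.65 (SE 0.35, adjusted p = 0.156) and Cd3e one of 0.46 (SE 0.56, adjusted p = 0.525). The first of these did not overlap between times and the second did.

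The promoters of the 3 genes that rose together are shown from RefSeq (GRCm38.p6), which held 6 of the 10 genes and not Cd4, Cd79b, Ighm or Igkc. Each run ends at the last base before the gene as the count tables place it, is written 5′ to 3′ on the gene's strand, and has in capitals the matches, on either strand, to 5 short motifs of lymphocyte transcription factors: AGGTGTGA (T-box), TGTGGT (RUNX), AGGAAG (ETS), CAGGTG (E-box) and ATTTGCAT (octamer).
Gzma, chr13:113100982-113101231, minus strand: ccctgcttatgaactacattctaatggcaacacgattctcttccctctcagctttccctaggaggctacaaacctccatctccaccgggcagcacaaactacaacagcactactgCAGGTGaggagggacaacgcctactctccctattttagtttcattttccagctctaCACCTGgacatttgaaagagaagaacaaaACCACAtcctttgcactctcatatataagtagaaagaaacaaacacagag
Nkg7, chr7:43436888-43437072, plus strand: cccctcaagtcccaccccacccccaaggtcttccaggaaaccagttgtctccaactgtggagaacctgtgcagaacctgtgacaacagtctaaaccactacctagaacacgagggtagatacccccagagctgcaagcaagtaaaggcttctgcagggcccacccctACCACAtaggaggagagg
Cd8a, chr6:71373177-71373426, plus strand: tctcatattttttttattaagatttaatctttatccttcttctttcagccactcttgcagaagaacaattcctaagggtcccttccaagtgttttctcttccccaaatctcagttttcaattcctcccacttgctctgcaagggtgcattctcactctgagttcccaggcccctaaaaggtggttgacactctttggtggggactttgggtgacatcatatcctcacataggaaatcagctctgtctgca
The RUNX letters occur once in Gzma and once in Nkg7, as ACCACA on the strand shown, and in 14% of all 32851 promoter windows of 250 bases. Gzma has 2 E-box matches, found in 17.2% of windows. The Nkg7 window runs 65 bases on, into the gene as annotated, and there holds AGGAAG (29.5% of windows) and AGGTGTGA (1.12%), which do not overlap each other. None of the 5 motifs occurs in the Cd8a window. Of the other windows, Cd3e holds AGGAAG on each strand, Cd79a holds CAGGTG and AGGAAG, and Jchain none. The octamer, found in 1.6% of windows, is in none of the 6. These are letter matches, and no binding was measured.

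None of the B and plasma cell genes passed the test over time in wild-type. Cd79a had 13, 19 and 16 counts at 2 months and 20, 27 and 28 at 5 months, a log2 fold change of 0.75 (SE 0.32, adjusted p = 0.0762) without overlap. Igkc had a log2 fold change of 1.08 (SE 0.51, adjusted p = 0.135), Jchain 0.37 (SE 0.49), Cd79b 0.29 (SE 0.30) and Ighm -0.32 (SE 0.23). Wild-type replicate 1 at 2 months was the highest of its group in Igkc and Jchain. Without it Igkc rose by 1.84 (adjusted p = 9.4e-05) and Jchain by 1.16 (adjusted p = 0.0284), and 5 of the 10 genes passed the test, in a fit that called 47.0% of all genes tested.

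In the livers labelled PPARγ-KO none of the 8 genes tested over time passed, where 44.9% of all 14478 genes tested were called, and 1 of the 8 had an unadjusted p under 0.05. DESeq2 called 1, Nkg7. Groups did not overlap for 1 gene of the 10, Nkg7, against 55.6% of all genes. Nkg7 had 9, 5 and 15 counts at 2 months and 53, 13 and 9 at 5 months, with the lowest level at 5 months (0.568 CPM) just above the highest at 2 months (0.558 CPM), and a log2 fold change of 1.50 (SE 0.61, adjusted p = 0.0724). Replicate 1 at 5 months carried much of this, and without it the value was 0.47 (SE 0.50, adjusted p = 0.487). Gzma had a log2 fold change of 1.03 (SE 0.52, adjusted p = 0.131). Cd8a had 8, 3 and 12 counts and then 40, 12 and 4, too few for the test. Cd4 went the other way, from 20, 19 and 34 counts to 22, 7 and 8, a log2 fold change of -0.81 (SE 0.40, adjusted p = 0.125). The number of genes called was 1 without PPARγ-KO replicate 1 at 5 months (Cd4, -1.39, adjusted p = 0.0272) and 3 without replicate 3, in fits that called 37.4% and 37.1% of all genes tested.

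Of the B and plasma cell genes in PPARγ-KO, Ighm had a log2 fold change over time of -0.54 (SE 0.47), Cd79a -0.37 (SE 0.64), Cd79b -0.38 (SE 0.36), Jchain 0.46 (SE 0.51) and Igkc 0.64 (SE 0.53). All 5 had overlapping groups. Without PPARγ-KO replicate 2 at 2 months Ighm fell by 0.889 on the log2 scale (adjusted p = 6.59e-05).

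Whether the genotype difference itself changed between the times was tested directly, over all 12 libraries. None of the 10 genes passed, against 1.57% of all 15127 genes tested, and none did when any 1 library was left out. DESeq2 called 0 as well but gave Cd4 no adjusted p, and 1 gene had an unadjusted p under 0.05. That gene was Cd4, whose difference was 0.56 at 2 months and -0.88 at 5 months, a change of -1.45 (SE 0.54, adjusted p = 0.205, edgeR). Cd8a and Nkg7 changed by -1.36 (SE 0.92) and -1.47 (SE 0.95), with adjusted p-values of 0.538 and 0.511. The Ighm difference changed by -0.22 (SE 0.57).

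The T and NK genes were then set against the B and plasma cell genes in each library, as the mean log2 CPM (with 0.1 CPM added) of the first 5 minus that of the other 5. In wild-type this difference was -2.47 ± 0.28 at 2 months and -1.45 ± 0.19 at 5 months (SD, n = 3), and in PPARγ-KO it was -2.40 ± 0.36 and -1.91 ± 0.21. At 5 months all wild-type libraries lay above those of 2 months (-1.67 to -1.32 against -2.76 to -2.21). The genotypes at 5 months overlapped only at PPARγ-KO replicate 1, at -1.67. With Ighm left out of the B and plasma cell genes, the genotypes at 5 months were at -0.93 ± 0.21 and -0.97 ± 0.13, and the gap between them was not seen. No p is given, since the score joins genes that were chosen for this purpose.

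Taken as sums, the T and NK genes reached 2.03 to 2.62 CPM in wild-type and 2.05 to 3.46 CPM in PPARγ-KO at 2 months. At 5 months wild-type reached 4.86, 10.2 and 9.08 CPM and PPARγ-KO 7.27, 2.61 and 2.21 CPM. PPARγ-KO replicates 2 and 3 at 5 months were thus at the level of the libraries at 2 months, and replicate 1 was within the wild-type range.

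**Figure D3:**
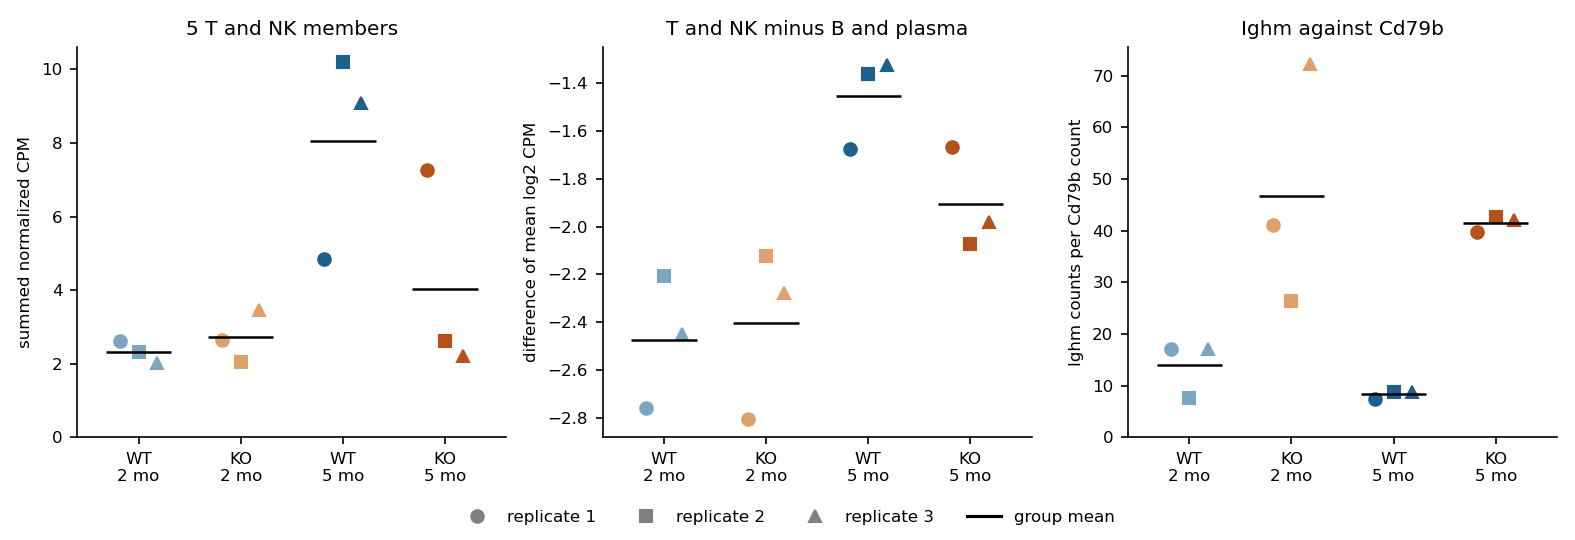
Values per library, with the group mean as a line: summed normalized CPM of the 5 T and NK genes (left, from 0), the difference of mean log2 CPM between T and NK and B and plasma cell genes (middle, axis not from 0), and Ighm counts per Cd79b count (right, from 0). The T and NK sum is highest in wild-type at 5 months apart from PPARγ-KO replicate 1, and the Ighm to Cd79b ratio of every PPARγ-KO library (26.4 to 72.3) is above every wild-type library (7.44 to 17.2).

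Ighm moved apart from the other B cell genes. For each Cd79b count there were 17.1, 7.53 and 17.2 Ighm counts in wild-type and 41.1, 26.4 and 72.3 in PPARγ-KO at 2 months, then 7.44, 8.85 and 8.68 (wild-type) and 39.8, 42.6 and 42.0 (PPARγ-KO) at 5 months. The genotypes did not overlap at either time, and PPARγ-KO replicate 1 at 5 months did not stand apart in this ratio. Against Igkc, Ighm stood at 2.97, 6.89 and 7.15 counts per count in wild-type and 13.3, 8.81 and 13.0 in PPARγ-KO at 2 months, and at 1.68 to 1.80 and 4.28 to 12.7 at 5 months. Against Ighd, the IgD heavy chain made from the same locus by naive B cells, the ratio was 10.1 to 14.8 and 19.2 to 46.4 at 2 months, and 9.83 to 11.2 and 57.2 to 182.0 at 5 months.

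Ighm made up 55.1% to 77.6% of all immunoglobulin constant region counts in wild-type and 79.7% to 87.3% in PPARγ-KO at 2 months, and 51.0% to 55.4% and 73.9% to 89.2% at 5 months. Variable segments, the part of an antibody that a rearranged B cell transcript carries in front of the constant region, overlapped between genotypes at both times. All immunoglobulin variable segments together had 161, 59 and 55 counts in wild-type and 103, 40 and 100 in PPARγ-KO at 2 months, then 60, 116 and 133 (wild-type) and 142, 87 and 44 (PPARγ-KO) at 5 months. Ighm counts per variable segment count were 2.88 to 7.80 in wild-type and 10.6 to 18.1 in PPARγ-KO at 2 months, and 2.68 to 3.35 against 6.44 to 12.4 at 5 months. These ratios were looked at after the Ighm counts had been seen and were not tested.

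Other genes of the same cells, taken from marker lists, gave a wider view. Of 26 further T cell genes, 18 had enough counts to be tested in wild-type over time, against 11 between genotypes at 2 months. Some of the 18 were thus tested through their counts at 5 months, and such genes can hardly be called as lower. Of the 18, 9 rose and 0 fell, where 23.8% of all genes tested rose and 22.7% fell. The leading ones were Trbc2, a constant region of the receptor beta chain (2.18, SE 0.30, adjusted p = 0.00021), Cd3g, a CD3 chain (3.25, SE 0.57, adjusted p = 0.00092), Thy1 (1.76, adjusted p = 0.002) and Cd6 (2.48, adjusted p = 0.00352), as log2 fold changes. Cd3g had 3, 4 and 3 counts at 2 months and 13, 47 and 31 at 5 months. Trac, the alpha chain constant region, rose by 1.53 on the log2 scale (adjusted p = 0.013), and Cd3d had a log2 fold change of 1.47 (adjusted p = 0.062). In PPARγ-KO 1 of 11 tested T cell genes rose over time (Trbc2, 2.36, adjusted p = 0.00363) and 2 fell (Icos and Zap70), where 22.7% of all genes tested rose and 22.2% fell.

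Of 21 further NK and cytotoxic genes, 8 were tested in wild-type over time. Of these, 5 rose and 0 fell, where 23.8% of all genes tested rose and 22.7% fell. Gzmb, the granzyme B protease, had 3, 10 and 8 counts at 2 months and 42, 45 and 45 at 5 months (log2 fold change 2.75, SE 0.38, adjusted p = 0.0002). Ccl5, a chemokine made by cytotoxic lymphocytes, had 25, 37 and 36 counts and then 100, 161 and 191 (2.31, SE 0.25, adjusted p = 4.43e-05). Il2rb, a receptor chain for interleukin 2 and 15, rose by 0.66 (adjusted p = 0.0211) and Cd160 by 1.44 (adjusted p = 0.0347). Ncr1, an NK cell receptor, had 0 to 10 counts per library and was not tested. In PPARγ-KO Gzmb rose by 1.33 on the log2 scale over time (adjusted p = 0.0281), a call that was lost without replicate 1 at 5 months (1.02, adjusted p = 0.13), and Ccl5 had 27, 13 and 40 counts at 2 months and 242, 46 and 37 at 5 months, again with replicate 1 far above the others.

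Gzmk and Pdcd1 had no count in any of the 6 libraries at 2 months and counts in all 6 at 5 months, and were picked out after their values had been seen. Gzmk, granzyme K, had 9, 22 and 20 counts in wild-type and 30, 4 and 1 in PPARγ-KO at 5 months. PPARγ-KO replicate 1 held 30 of the 35 counts of its group. Pdcd1, the PD-1 receptor of activated T cells, had 8, 6 and 5 counts in wild-type and 19, 1 and 2 in PPARγ-KO. Replicate 1 held 19 of the 22 PPARγ-KO counts. The same values chose these genes, so no fold change or p is given. The share of all genes with this pattern was not counted.

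Between genotypes at 5 months, 3 of 20 tested T cell genes (Icos, Cd2, Trbc2) were lower in PPARγ-KO and none was higher. The same held for 2 of 9 NK and cytotoxic genes (Klrk1, Gzmb). At the same threshold 9.51% of all genes tested were lower and 8.9% higher. In PPARγ-KO over time 11 T cell genes and 6 NK and cytotoxic genes had enough counts for the test. Some genes were thus tested at 5 months through their wild-type counts, and such genes can hardly be called as higher in PPARγ-KO. Icos, a costimulatory receptor, had 28, 37 and 30 counts in wild-type and 13, 15 and 10 in PPARγ-KO, a log2 fold change of -1.40 (SE 0.31, adjusted p = 0.00762). Cd2, an adhesion receptor, had 21, 14 and 31 against 9, 5 and 7 (-1.70, adjusted p = 0.013), and Trbc2 had 37, 51 and 52 against 33, 25 and 9 (-1.16, adjusted p = 0.0245). In these 3 genes PPARγ-KO replicate 1 was also below the wild-type level. Klrk1, the NKG2D receptor, differed by -1.15 (adjusted p = 0.0108) and Gzmb by -0.90 (adjusted p = 0.0489). Without PPARγ-KO replicate 1, 6 of 21 T cell and 5 of 9 NK and cytotoxic genes were called, all lower. In that fit 15.6% of all genes tested were called, in either direction.

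Of 20 further B cell genes, 10 had enough counts for the test between genotypes at 5 months. Of these, 9 were lower in PPARγ-KO and none higher, where 9.51% of all genes tested were lower and 8.9% higher. Ms4a1, which encodes CD20, had 19, 14 and 22 counts in wild-type and 3, 5 and 6 in PPARγ-KO (-2.01, SE 0.45, adjusted p = 0.00791). Cd22, an inhibitory coreceptor of B cells, had 54, 89 and 102 against 43, 27 and 22 (-1.49, SE 0.26, adjusted p = 0.00155). Bank1, a B cell adaptor, had 77, 79 and 97 against 52, 47 and 28 (-1.08, SE 0.20, adjusted p = 0.0023), and Cd72 had 107, 157 and 194 against 106, 91 and 63 (-0.90, SE 0.19, adjusted p = 0.0049). Ly6d differed by -0.80 (adjusted p = 0.00016) and, with 1368 to 2653 counts at 5 months, made up most of the summed level of its list. Without PPARγ-KO replicate 1, 11 of 14 B cell genes were lower, in a fit that called 15.6% of all genes tested in either direction.

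Over time the further B cell genes went up in wild-type and mostly down in PPARγ-KO where they passed the test. In wild-type 5 of 14 tested rose and 0 fell (median log2 fold change 0.52), where 23.8% of all genes rose and 22.7% fell. Cd72, an inhibitory receptor of B cells, led the 5 (1.23, SE 0.22, adjusted p = 0.001). Without wild-type replicate 1 at 2 months 3 of 16 rose and 1 fell, in a fit that called 47.0% of all genes tested. In PPARγ-KO 2 of 13 tested rose and 6 fell (median -0.66), against 22.7% and 22.2% of all genes. Ighd had 47, 22 and 39 counts at 2 months and 16, 9 and 3 at 5 months (-1.80, SE 0.44, adjusted p = 0.00652), and Blk, a kinase of B cell receptor signalling, had 14, 19 and 28 and then 10, 7 and 2 (-1.51, SE 0.45, adjusted p = 0.019). Ly6d went the other way, from 137 to 201 counts to 1368 to 1516. Without PPARγ-KO replicate 1 at 5 months 1 of 14 rose and 5 fell, in a fit that called 37.4% of all genes tested. The change of the genotype difference between the times was called by edgeR for 0 of 16 tested, against 1.57% of all genes tested. An unadjusted p under 0.05 was reached by 9 of the 16, and DESeq2 called 1, Bank1.

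At 2 months none of the further T, NK, B or plasma cell genes passed the test between genotypes, of 11, 7, 15 and 8 tested by edgeR. An unadjusted p under 0.05 was reached by 1, 0, 1 and 2 of them, and DESeq2 called 0. Of all genes tested, edgeR called 3.56%.

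No plasma cell gene passed the test between genotypes at 5 months, where edgeR called 18.4% of all genes tested. Of 7 tested, 0 were called by edgeR, 3 had an unadjusted p under 0.05 and DESeq2 called 0. Igha, the IgA heavy chain, had 12, 21 and 20 counts in wild-type and 17, 5 and 8 in PPARγ-KO, and Ighg2b had 13, 12 and 11 against 24, 8 and 1. Mzb1, a chaperone of immunoglobulin secretion, had 3 to 14 counts per library over all 12. Over time in wild-type 4 of 8 rose, where 23.8% of all genes tested rose. The 4 were Sdc1, Derl3, Xbp1 and Fkbp11, which serve secretion or the cell surface in hepatocytes as well. No immunoglobulin gene of the list was among them.

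Among 23 chemokine and homing genes, 6 of 16 tested were lower and 1 higher in PPARγ-KO at 5 months. Of all genes tested, 9.51% were lower and 8.9% higher. Log2 fold changes were -0.72 for Cxcl16, -0.95 for Cxcr4 and -2.89 for Cxcl13. Cxcl13, which draws B cells into follicles, had 7, 8 and 4 counts in wild-type and 71, 16 and 33 in PPARγ-KO at 2 months, then 11, 19 and 22 (wild-type) and 0, 5 and 2 (PPARγ-KO) at 5 months. PPARγ-KO was thus above wild-type in every library at 2 months and below in every library at 5 months. The log2 fold change was 2.52 (SE 0.62, adjusted p = 0.0624) at 2 months. There the fit with the replicate block called it (2.39, adjusted p = 0.0179), and so did DESeq2. At 5 months the log2 fold change was -2.89 (SE 0.64, adjusted p = 0.00727). The change between the times was -5.42 (SE 0.98, adjusted p = 0.013), and DESeq2 gave no adjusted p for it. In wild-type over time 7 of 15 tested rose and 2 fell, where 23.8% of all genes tested rose and 22.7% fell. Cxcl16 (1.34, adjusted p = 1.42e-05) and Cxcl9 (1.47, adjusted p = 1.43e-05) were up. Cxcl11 (-1.58, adjusted p = 0.00093) and Cxcl12 (-0.52, adjusted p = 0.00117) were down. Cxcl9, which recruits activated T cells, had 635, 831 and 1002 counts in wild-type at 5 months and 857, 216 and 207 in PPARγ-KO, and replicate 1 was again the high one.

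**Figure D4:**
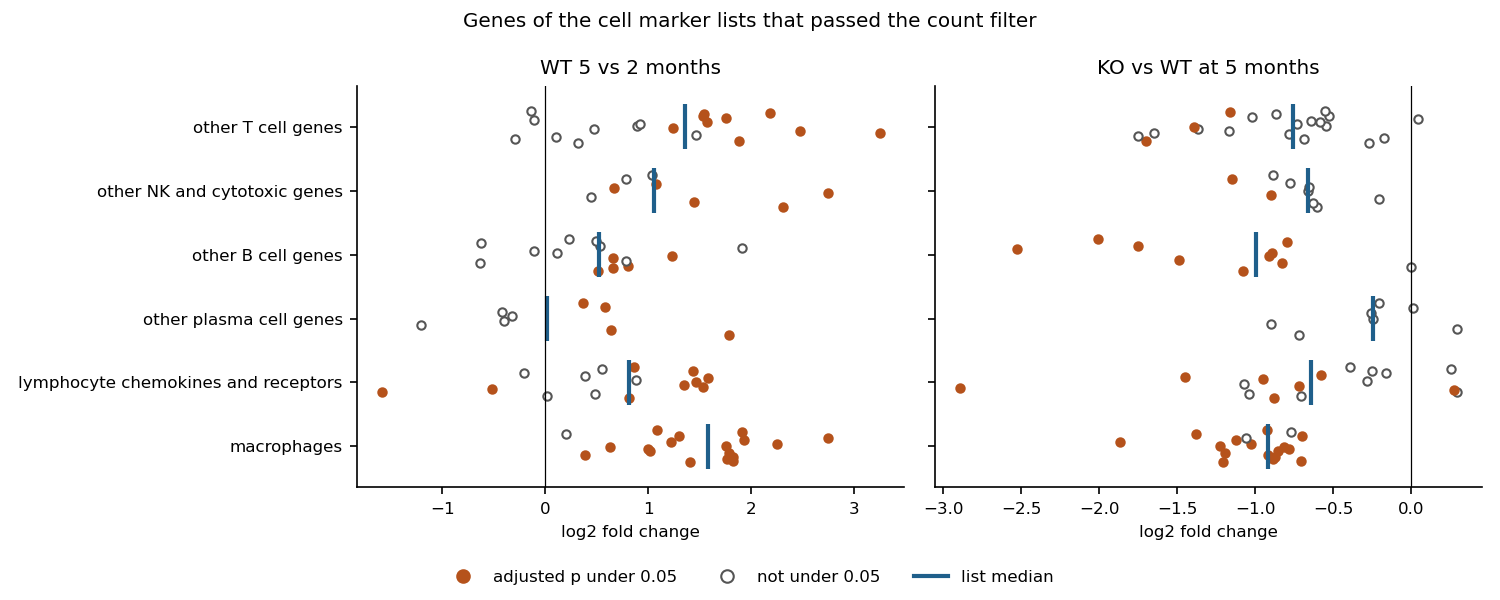
Log2 fold change (horizontal axes) of each tested gene of 6 marker lists, in wild-type at 5 over 2 months (left) and in PPARγ-KO over wild-type at 5 months (right), with the list median as a bar. Filled points passed the edgeR test at an adjusted p under 0.05. Medians of the T cell, NK, B cell, chemokine and macrophage lists lie above 0 on the left (1.35, 1.05, 0.52, 0.81 and 1.58) and below 0 on the right (-0.76, -0.66, -0.997, -0.64 and -0.92). The plasma cell list is at 0.02 and -0.25, while the median of all genes is -0.01 on both sides.

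Markers of other cells moved in the same comparisons. Ptprc, the CD45 protein of all leukocytes, rose by 0.59 on the log2 scale in wild-type over time (adjusted p = 0.0138) and was lower in PPARγ-KO at 5 months (log2 fold change -0.89, adjusted p = 0.00281). Of 18 macrophage genes 17 rose in wild-type over time, where 23.8% of all genes tested rose. In PPARγ-KO at 5 months 16 of the 18 were lower, where 9.51% of all genes tested were lower. The macrophage sum was 785.4 to 1024 CPM in wild-type and 805.0 to 932.7 CPM in PPARγ-KO at 2 months. At 5 months it was 2262 to 2695 CPM against 1237 to 1453 CPM. PPARγ-KO replicate 1 at 5 months was not high in this sum, at 1257 CPM, unlike in the T and NK genes. Of 10 hepatocyte genes 3 were higher and none lower in PPARγ-KO at 5 months, against 8.9% and 9.51% of all genes tested. Hepatocyte sums were 56620 to 60100 CPM in wild-type and 74590 to 86260 CPM in PPARγ-KO. The 12 neutrophil and erythroid genes summed to 358.8 to 403.8 CPM in wild-type and 363.9 to 666.6 CPM in PPARγ-KO at 5 months. Of 9 tested, 1 was higher in PPARγ-KO, an erythroid gene, and 2 were lower, both neutrophil genes. The sum thus joins cells whose genes moved in opposite directions. The part of these shifts in the lymphocyte values was not tested.

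Gene segments of the T cell receptor were counted as well. Constant segments together had 27 to 46 counts in wild-type and 26 to 61 in PPARγ-KO at 2 months, and 80 to 126 against 43 to 85 at 5 months. At 5 months that was 6.06 ± 1.303 CPM in wild-type and 3.27 ± 0.669 CPM in PPARγ-KO (SD, n = 3), without overlap. Variable segments had 4 to 10 and 3 to 13 counts at 2 months and 24 to 32 and 5 to 23 at 5 months. No immunoglobulin variable segment took more than 20% of the variable counts of a library, and that highest share rested on 8 of 40 counts (exact 95% binomial interval 9.05% to 35.6%, counting error only).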

How the data were processed

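Liver RNA of 12 libraries was sequenced by Novogene, and the authors deposited for each library the raw count of reads on each of 54532 genes, not normalized. Reads were aligned to mm10, with STAR in the study's methods and HISAT2 in the submitters' processing notes. The counting program, annotation release and use of strand are not given in the sources used here, so Cd3e and Igkc could share reads with the genes that overlap them (Gm48719, Gm48720 and Gm30211, with at most 13 counts each over all libraries). There were 27 gene names stored as dates, which were restored from gene identifiers, and 100 names belonged to more than 1 gene, so genes were matched by identifier.

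Counts were scaled by TMM, filtered by filterByExpr and tested two-sided with edgeR 4.0.16 (glmQLFit, robust, and glmQLFTest, R 4.3.3) on the groups compared, with Benjamini-Hochberg adjustment over all genes tested and a threshold of 0.05. The interaction used all 12 libraries. A scarce gene can pass the filter through 1 group alone, and it is then more readily called as higher in that group than as lower. CPM are counts per 1e+06 TMM-scaled counts, with 0.1 added before logs. DESeq2 1.42.0, limma 3.58.1 (used by edgeR), other scalings and filters, all libraries in one fit and each library left out in turn served as alternatives, and the procedure was tested on simulated data. Libraries held 16367775 to 27452284 counts, and a gene with few counts is known only to its counting error. Intervals are 95% and cover that error only.

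The 10 genes, the marker lists and the rules were chosen with earlier results of these data known. Genes named are the 10, up to 4 called genes per lymphocyte list and comparison by smallest p, a fixed few (Ptprc, Cd3d, Cd3g, Trac, Trbc2, Ms4a1, Igha, Ighg2b, Mzb1, Ncr1, Cxcl13) and Pparg, with Gzmk and Pdcd1 added after their values were seen. Other lists are given as counts and sums, and a few genes that the rule names are not reported here.

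Same-numbered replicates of both genotypes deviated together at 2 months (r = 0.221, 0.325 and 0.139 over the 5000 most abundant genes), so the replicate block is given there. Differently numbered pairs ran from -0.274 to 0.115. Values of this size also arose between times in wild-type, at 0.237, 0.184 and 0.0186 for same-numbered pairs and up to 0.266 for differently numbered ones. They therefore do not show a shared batch. At 5 months same-numbered replicates of both genotypes did not deviate together (r = -0.075, -0.0618 and -0.185). The pairing was read from the data, not from the labels.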

Additional observations from a re-analysis of the deposited data

Results flagged for a closer look

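Cd4 was picked out because the libraries labelled PPARγ-KO were all above wild-type at 2 months and all below at 5 months. The change of the genotype difference was -1.45 on the log2 scale (SE 0.54), with an adjusted p of 0.205 in the edgeR interaction test. Over the 16 edgeR alternatives the adjusted p ran from 0.0812 to 0.39 and the change from -2.04 to -1.17, and DESeq2 gave no adjusted p for this gene.

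Cd160, a receptor of NK cells and cytotoxic T cells, had the same pattern, with 7, 2 and 9 counts in wild-type against 11, 12 and 19 at 2 months, then 14, 13 and 19 (wild-type) and 11, 10 and 10 (PPARγ-KO) at 5 months. Its change was -1.69 (SE 0.62, adjusted p = 0.198). Bank1, a scaffold protein of B cell receptor signalling, was picked out because it moved in opposite directions over time without overlap, from 2.95 to 3.81 CPM up to 4.56 to 5.06 CPM in wild-type, and from 2.64 to 4.32 CPM down to 1.77 to 2.45 CPM in PPARγ-KO. The change was -1.17 (SE 0.30), which did not pass the interaction test (adjusted p = 0.0686).

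Cxcl13 and Icos differed in their genotype effect between the times by the interaction test. The change was -5.42 for Cxcl13 (SE 0.98, adjusted p = 0.013) and -1.83 for Icos (SE 0.43, adjusted p = 0.0431). Cxcl13 stayed under the threshold with each library left out in turn, at an adjusted p of 0.00763 to 0.0482, and DESeq2 gave no adjusted p for it. Icos had 21, 29 and 24 counts against 34, 21 and 58 at 2 months, and its adjusted p was over the threshold with 10 of the 12 libraries left out in turn, with the replicate block (0.0774) and with library size alone (0.0532).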

How the results depend on the processing

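The 3 calls in wild-type over time (Cd8a, Nkg7, Gzma) kept their direction in every alternative that tested them, as did Ighm and Cd79b between genotypes at 5 months. The highest adjusted p was 0.00463 for Cd8a, 0.0078 for Nkg7, 0.0979 for Gzma, 0.0963 for Cd79b and 0.106 for Ighm (the replicate block or all libraries in one fit took Ighm past 0.05). The number of the 10 genes called at 5 months between genotypes was 4 by DESeq2, 5 without a filter, 1 with the replicate block, 1 with all libraries in one fit, 4 by the study's criteria (unadjusted p under 0.05 and 1.3-fold), and 1 to 6 with a library left out. At 2 months it was 1 by the study's criteria and 0 to 1 with a library left out. In wild-type over time it was 0 when every library had to have at least 10 counts, which leaves Cd8a, Nkg7 and Gzma untested, and 2 to 5 with a library left out. In PPARγ-KO over time it was 1 by DESeq2, 2 without a filter, 1 by the study's criteria and 0 to 3 with a library left out, and for the change between times 1 by the study's criteria and 0 with any library left out.

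Over all genes, 519 were called between genotypes at 2 months, against 988 by DESeq2, 1562 without a filter, 817 with the replicate block, 1153 with all libraries in one fit, 1608 by the study's criteria and 117 to 1577 with a library left out. The 2602 at 5 months became 1593 to 3078 with a library left out, the 6725 in wild-type over time 5357 to 6968, and the 6502 in PPARγ-KO 5374 to 6024. For the change between times, 238 became 594 by DESeq2, 793 without a filter, 1563 by the study's criteria and 83 to 567 with a library left out.

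The difference between T and NK and B and plasma cell genes, compared between genotypes, was 0.07 at 2 months and -0.46 at 5 months, and between times 1.02 in wild-type and 0.50 in PPARγ-KO. As a ratio of sums, which Ighm dominates, it was -0.76, -1.75 and 1.62 for the first 3. It was 0.63 in wild-type with 0.5 CPM added, 0.81 in PPARγ-KO without Cd4, and -0.042 at 5 months without Ighm, an alternative chosen after seeing the data. Libraries left out gave -0.07 to 0.27, -0.58 to -0.37, 0.88 to 1.15 and 0.29 to 0.64.

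Directions turned only in log2 differences that no fit called. Between genotypes at 2 months Jchain was 0.00671 without a filter, 0.00367 with at least 10 counts, 0.0272 with the replicate block and 0.00367 with all libraries together, and Igkc was 0.0826 with the block. The change of Jchain between times was -0.0161 with the block. With a library left out, they ran between genotypes at 2 months -0.37 to 0.79 for Jchain and -0.35 to 0.73 for Igkc. They ran between genotypes at 5 months -0.92 to 0.11 for Cd3e, -0.49 to 0.33 for Jchain and -1.40 to 0.21 for Ighg2b. They ran in wild-type over time -0.00238 to 0.86 for Cd3e, -1.73 to 1.03 for Igha and -0.80 to 0.82 for Ighg2b. They ran in PPARγ-KO over time -1.78 to 0.0494 for Cd79a, -0.56 to 0.012 for Cd79b and -0.14 to 0.83 for Jchain. They ran for the change between times -0.95 to 0.079 for Cd3e, -0.89 to 0.19 for Gzma, -0.57 to 0.0476 for Ighm and -0.69 to 0.46 for Jchain.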

Other observations

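By the correlation of log2 CPM over the 12 libraries, the genes most like Cd79a were Pik3cd (Pearson r = 0.916), Cxcl10 (0.911), Gbp8 (0.904), Ubash3b (0.895) and Myl12b (0.892). Those most like Cd3e were Itgae (0.858), Ilf2 (0.804), Gm10074 (0.783), Irf1 (0.764) and Gm14018 (0.761), and those most like Igkc were Pigx (0.893), Mrps9 (0.886), Spata5 (0.885), Polr2h (0.879) and Dmap1 (0.878). The libraries share the 4 groups, so these values describe shared differences between groups as well as between livers, and no p is given.

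Wild-type replicate 1 at 2 months had 110 Igha counts, against 12 and 7 in the other replicates and 5 to 27 in the other groups. It also had 36 Ighg2b counts, against 8 and 7 in the other replicates and 1 to 26 in the other groups. Its variable segments were spread over 59 genes, and the leading one, Ighv1-56, held 14 of 161 counts (8.70%, exact 95% binomial interval 4.84% to 14.2%, counting error only).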
